A study of Mus musculus with 2 samples.

Results

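Kupffer cells are the resident macrophages of the liver sinusoids. They are seeded before birth, renew themselves locally, and clear bacteria, debris and aged red cells from portal blood through complement and scavenger receptors. Their identity genes in mice include Clec4f, a galactose-binding lectin, Vsig4, a complement receptor, Timd4, a receptor for phosphatidylserine on dying cells, and Cd5l, a secreted scavenger-receptor protein. Here 653 Kupffer barcodes were described out of 34080 deposited barcodes, of which 25424 had at least 200 genes and at most 20% mitochondrial UMIs (unique molecular identifiers, that is, counted RNA molecules). Members were chosen by measured values: a barcode was taken as a Kupffer cell when it passed those limits, held at least 3 UMIs of Clec4f, Vsig4 and Timd4 together, and held at most 1 UMI each of the Cd3 chains together, of Cd79a, and of the endothelial genes Stab2, Kdr and Ptprb together.

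Both libraries were 10x Genomics 5′ libraries of hepatic mononuclear cells from C57BL/6 mice, each made from a pool of 3 mice at day 14. The no-tumor library came from livers labelled as without tumor. The MC38 library came from livers bearing MC38, a mouse colon carcinoma line, after injection of 500000 cells into the spleen and removal of the spleen. One protocol text is given for both libraries. It also describes a subcutaneous injection of 3000000 MC38 cells, and it does not say which of these steps the no-tumor mice underwent, so surgery and a tumor elsewhere in the body cannot be told apart from liver metastasis here. Hepatocytes were depleted by slow centrifugation and the remaining cells were banded on a density gradient. With 1 library per group there was no replicate, so no test between conditions was possible. Intervals below are exact 95% intervals that cover counting error only, and not differences between mice, between libraries or between barcodes. A gene whose UMIs sit in few barcodes varies more than its interval shows.

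The libraries held 14258 no-tumor and 19822 MC38 barcodes, and the rule kept 230 and 423 as Kupffer cells. Kupffer barcodes had a median of 2008.5 UMIs in the no-tumor library, with a range of 505 to 27373, and 2579 UMIs in the MC38 library, with a range of 500 to 28622. Median mitochondrial shares were 12.6% and 9.70%. UMIs of a 28-gene hepatocyte list averaged 0.106% of a Kupffer barcode's UMIs in the no-tumor library and 0.808% in the MC38 library. The libraries shared 63 barcode sequences, 1 of them in a no-tumor Kupffer barcode and 1 in an MC38 Kupffer barcode.

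The label was better supported in some of these barcodes than in others. The deepest barcodes passed the threshold of 3 UMIs with few marker UMIs for their size and carried monocyte RNA. At least 20 UMIs of the 3 rule genes per 10000 UMIs were found in 144 no-tumor and 283 MC38 barcodes, called Kupffer-rich below. This line was drawn after the data had been seen. Without the mitochondrial limit 811 and 453 barcodes reached it, and 667 and 170 of these had over 20% mitochondrial UMIs. The no-tumor Kupffer-rich set was thus the smaller part of its barcodes above the line, and the MC38 set the larger part. Among Kupffer-rich barcodes, 97.2% and 92.9% held Cd5l, which the rule did not use, and 2.78% and 1.77% held 2 or more UMIs of the monocyte genes Ly6c2 and Ccr2. In the remaining 86 and 140 barcodes those monocyte shares were 65.1% and 52.1%, and 11.6% and 4.29% held 2 or more UMIs of Siglech, a plasmacytoid dendritic cell gene. Such shares rise with depth, which differed between the sets, so they alone cannot show where the label holds. The remaining barcodes had a median of 9536.5 and 10587.5 UMIs, against 1136.5 and 1647 in Kupffer-rich barcodes. The cut sets part of this gap, since with 3 rule UMIs a shallow barcode always exceeds 20 per 10000. The shallowest remaining barcodes had 1504 and 1521 UMIs. In CPM, the depth-scaled unit defined below, the monocyte list was at 790 and 2210 in Kupffer-rich and 3861 and 7565 in remaining barcodes. The plasmacytoid dendritic cell list was at 319 and 15.5, against 852 and 209. The remaining barcodes held most of the summed RNA, so sums over all Kupffer barcodes were weighted towards them. Gene values below are therefore for Kupffer-rich barcodes unless all Kupffer barcodes are named, and list counts are given for both.

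**Figure D1:**
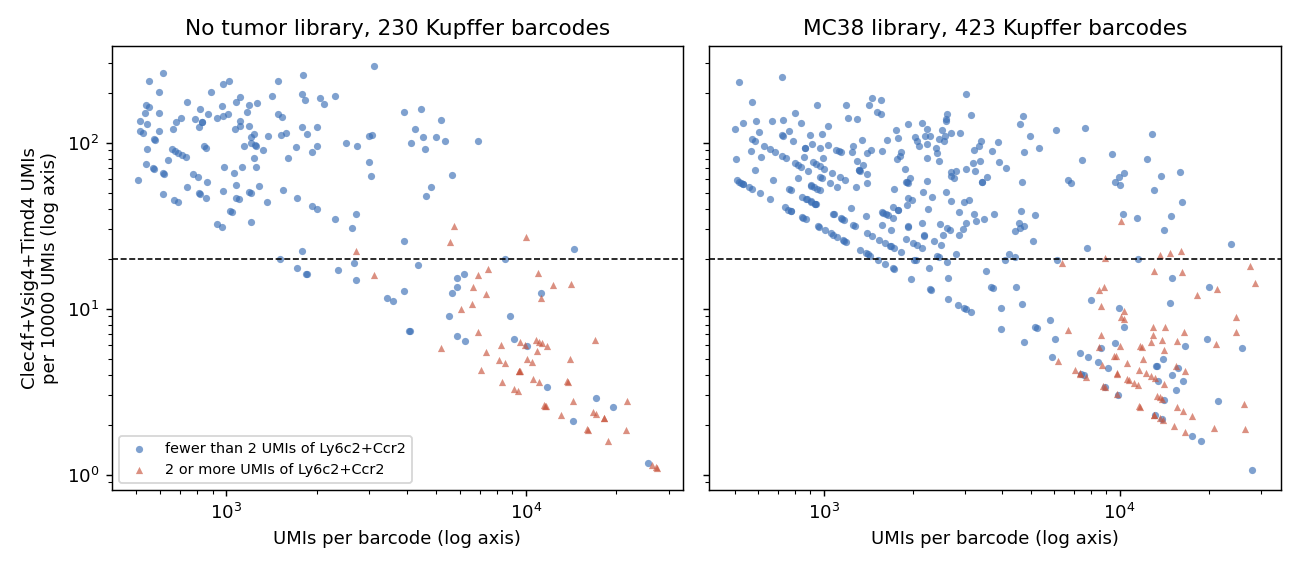
UMIs of Clec4f, Vsig4 and Timd4 per 10000 UMIs (y axis, log) against UMIs per barcode (x axis, log) for the 230 no-tumor and 423 MC38 Kupffer barcodes; triangles mark barcodes with 2 or more UMIs of Ly6c2 and Ccr2, and the dashed line is the Kupffer-rich line of 20 per 10000. Triangles sit mostly below the line and at high depth in both libraries. Both the line and the mark of 2 UMIs depend on depth.

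The values that chose the members are given as a description. Clec4f was detected in 93.5% of no-tumor and 87.0% of MC38 Kupffer barcodes, Vsig4 in 85.7% and 87.5%, and Timd4 in 48.7% and 38.5%. All 3 genes were detected together in 40.4% of no-tumor and 29.3% of MC38 Kupffer barcodes. Just outside the threshold, at 2 UMIs of the rule genes, lay 54 and 119 barcodes with Cd5l at 104 and 223 CPM, that is, UMIs per 1000000 UMIs. Just inside, at 3 UMIs, lay 29 and 69 barcodes with Cd5l at 277 and 358 CPM. In B-cell barcodes, which should lack these genes, 1.63% of no-tumor and 1.53% of MC38 barcodes reached 3 rule UMIs. Just outside the mitochondrial limit, at 20 to 22%, lay 39 and 29 barcodes with Cd5l at 3322 and 2924 CPM, and just inside, at 18 to 20%, lay 31 and 31 with 1658 and 5353 CPM.

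Beyond the rule genes, the genes that set Kupffer-rich barcodes apart from 9 other classes of barcodes in both libraries were Cd5l, the complement component C6, the folate receptor Folr2, the hemoglobin receptor Cd163, the chemokine Cxcl13, the iron exporter Slc40a1, the scavenger receptor Marco, the ficolin Fcna and Epb41l3. These came from the barcodes the rule had picked and are a description. Cd5l was at 6111 CPM in no-tumor and 4760 CPM in MC38 Kupffer-rich barcodes and at most 14.3 and 8.90 CPM in any other class. The other classes were chosen to hold no UMI of the rule genes, and C1q macrophages to hold none of Cd5l, so the choice of classes sets much of this contrast.

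Kupffer barcodes made up 2.84% (2.49 to 3.23) of no-tumor barcodes that passed the limits and 2.44% (2.22 to 2.68) of MC38 barcodes. The log2 ratio of the shares was −0.22 (−0.46 to 0.02), so the counting interval included no difference. The mitochondrial limit decided much of this value. Without it, 955 no-tumor and 615 MC38 barcodes met the marker rule, 6.75% and 3.14% of barcodes, a log2 ratio of −1.10 (−1.25 to −0.96). Between 10 and 20% mitochondrial UMIs the ratio was 0.49 (0.18 to 0.80), in the opposite direction. Hepatocyte-rich barcodes numbered 137 in the no-tumor and 3620 in the MC38 library, and both numbers are part of the denominators. Over barcodes with a UMI of the leukocyte gene Ptprc, the shares were 1.93% and 2.18%, with a log2 ratio of 0.17 (−0.14 to 0.49). This also cut the Kupffer barcodes, to 142 and 213. Ptprc was detected in 61.7% and 50.4% of all Kupffer barcodes and in 43.1% and 34.6% of Kupffer-rich ones.

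Among genes ranked by the interval end nearest 0, Marco came second on the higher side in Kupffer-rich barcodes, after Mmp12, which had 1 no-tumor UMI. Marco is a scavenger receptor that binds bacteria and modified lipoproteins (chr1:120474538-120505024, minus strand, GRCm38). In Kupffer-rich barcodes Marco stood at 728 CPM (627 to 840) in the no-tumor library and 4821 CPM (4668 to 4978) in the MC38 library. The log2 fold was 2.73 (2.52 to 2.95), a 6.62-fold difference. Marco was detected in 38.2% (30.2 to 46.7) of no-tumor and 87.3% (82.8 to 90.9) of MC38 Kupffer-rich barcodes, and in 0.516% and 1.91% of B-cell barcodes without rule-gene UMIs, whose median depths were 3864 and 3126.5 UMIs. In B-cell barcodes not limited on the rule genes it was detected in 1.25% of 1044 and 4.31% of 2226. With each Kupffer-rich barcode thinned to 1000 UMIs, detection was 38.4% of 86 and 81.9% of 204 barcodes, with 58 and 79 shallower barcodes left out. Over all Kupffer barcodes Marco was at 229 and 2007 CPM, giving a log2 fold of 3.13 (2.95 to 3.31).

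Marco was higher in the MC38 library in each subset of Kupffer-rich barcodes that was examined. Its level was 839 against 5122 CPM in barcodes with up to 10% mitochondrial UMIs and 692 against 4626 CPM in those with 10 to 20%. In barcodes with under 1000 UMIs it was 361 against 3869 CPM. Barcodes with Timd4 detected had 829 and 5207 CPM, and those without had 530 and 4178 CPM. In barcodes with under 0.2% hepatocyte-list UMIs, Marco was at 704 and 4314 CPM. These were 117 of the 144 no-tumor and 54 of the 283 MC38 Kupffer-rich barcodes. Their median depths differed, at 1192 and 3897.5 UMIs. Macrophage barcodes with C1q but neither rule genes nor Cd5l were at 14.3 and 14.2 CPM, and hepatocyte barcodes at 0 and 10.4 CPM. The C1q macrophage values rested on 9 and 229 UMIs, for a log2 fold of −0.01 (−0.96 to 1.14), and that class was chosen to lack Kupffer genes. Barcodes just outside the rule, with 2 rule UMIs, had Marco at 26.8 and 209 CPM, so its level was also higher outside the members. The 250 bases before the Marco start, from RefSeq's GRCm38.p6 table, are shown because Marco is the most abundant of the genes ranked on the higher side.

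Marco (chr1:120505025-120505274, minus strand, GRCm38.p6): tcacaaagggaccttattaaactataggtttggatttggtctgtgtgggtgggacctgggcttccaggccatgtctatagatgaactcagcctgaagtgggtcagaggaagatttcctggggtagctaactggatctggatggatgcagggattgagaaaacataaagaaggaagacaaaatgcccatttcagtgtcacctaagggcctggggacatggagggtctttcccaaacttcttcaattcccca

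No letters are in capitals because none of the 4 motifs searched on both strands was found in it. These were the Y box of MHC class II promoters (CTGATTGG), an interferon-stimulated response element (ISRE, 2 copies of GAAA with any 2 bases between), a PU.1 motif (GAGGAAGT) and an AP-1 motif (TGANTCA). They occurred in 3.83%, 2.98%, 2.44% and 6.75% of 32851 windows of the same length.

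**Figure D2:**
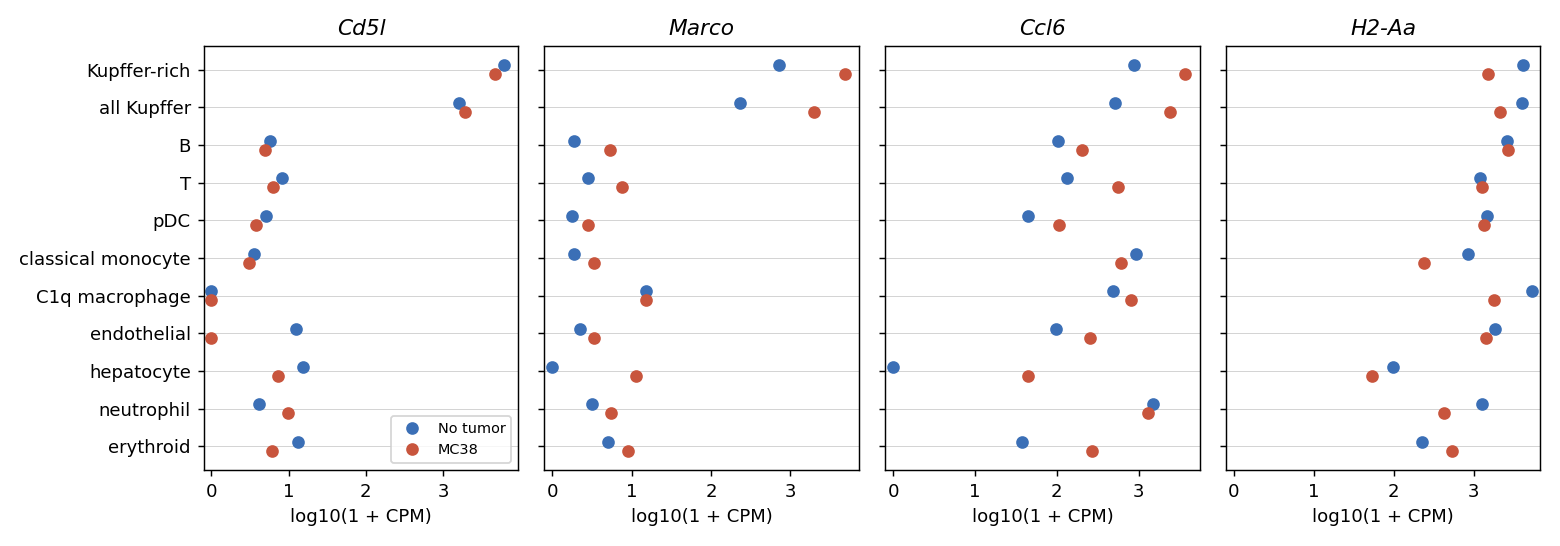
Levels of Cd5l, Marco, Ccl6 and H2-Aa as log10(1 + CPM) (x axis) in Kupffer-rich barcodes, all Kupffer barcodes and 9 other classes (y axis), 1 point per library, no-tumor in blue and MC38 in red. Marco in C1q macrophages is at 14.3 and 14.2 CPM, while in Kupffer-rich barcodes it is at 728 and 4821 CPM; C1q macrophages were chosen to lack Cd5l.

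Across genes, a call meant at least a 2-fold difference with an interval that excluded no difference, among genes with at least 50 UMIs. In Kupffer-rich barcodes 2910 genes were measured, of which 259 (8.90%) were called higher and 119 (4.09%) lower in the MC38 library. Over all Kupffer barcodes 6932 genes were measured, of which 446 (6.43%) were higher and 340 (4.90%) lower. The 2 sets shared 149 genes called higher, which is 57.5% of the Kupffer-rich calls and 33.4% of the calls over all barcodes. They shared 28 genes called lower, 23.5% of the Kupffer-rich calls and 8.24% of the others. No gene was called in opposite directions. Gene lists below used genes with at least 20 UMIs. At that depth, 7.08% of 5766 genes in Kupffer-rich barcodes were called higher and 4.63% lower, with a median log2 fold of 0.01. Over all Kupffer barcodes 6.92% of 9339 genes were called higher and 6.48% lower, with a median of −0.04. In the barcodes with few marker UMIs 6.92% of 5825 genes with at least 50 UMIs were called higher and 4.84% lower, and with at least 20 UMIs these were 7.15% and 6.65% of 8517.

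**Figure D3:**
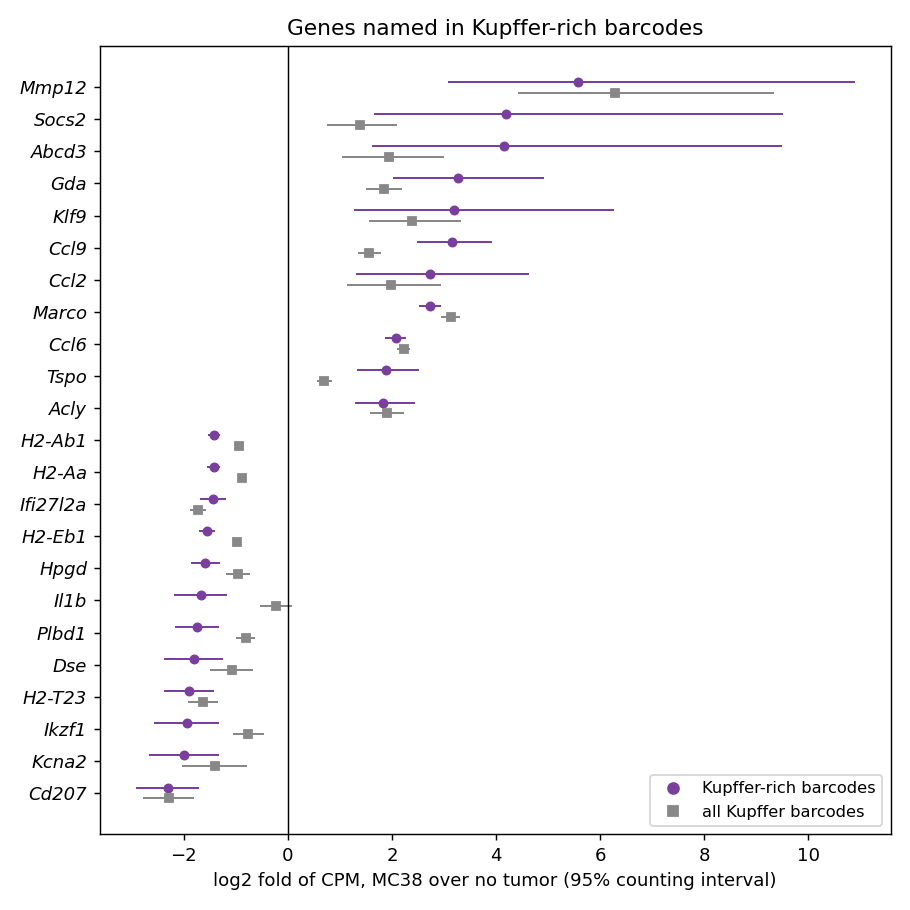
Log2 fold of CPM, MC38 over no tumor (x axis), with 95% counting intervals for genes ranked first in Kupffer-rich barcodes (purple circles) and the same genes over all Kupffer barcodes (grey squares); Fam20c, with 0 no-tumor UMIs, is not drawn. Marco and Ccl6 have similar values in both sets, while Ccl9 and Tspo have log2 folds of 3.16 and 1.89 in Kupffer-rich and 1.56 and 0.70 in all Kupffer barcodes.

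Chemokine genes, which encode secreted attractants of leukocytes, were among the genes ranked first. Ccl6, a CC chemokine of mouse myeloid cells, was at 884 CPM in no-tumor and 3713 CPM in MC38 Kupffer-rich barcodes, a log2 fold of 2.07 (1.88 to 2.27), and was detected in 61.1% and 90.8% of them. Its neighbour on chromosome 11, Ccl9, was at 70.1 and 624 CPM, for a log2 fold of 3.16 (2.48 to 3.92), and was detected in 6.94% and 37.1%. The eosinophil attractant Ccl24 was at 564 and 1302 CPM, giving a log2 fold of 1.21 (0.95 to 1.47). The first 2 were higher in each subset examined, but Ccl24 was not: in barcodes with up to 10% mitochondrial UMIs it was at 1219 and 1425 CPM, for a log2 fold of 0.23 (−0.13 to 0.60). The monocyte attractants Ccl2 and Ccl7 were rare, with 4 and 1 UMIs in the no-tumor and 80 and 67 in the MC38 library. Ccl2 had a log2 fold of 2.73 (1.32 to 4.64) and Ccl7 one of 4.47 (1.95 to 9.80). Neither call held in every subset. With up to 10% mitochondrial UMIs Ccl2 was at 1.05 (−0.99 to 4.19), and Ccl7 had 0 and 15 UMIs. Under 2000 UMIs Ccl2 was at 1.32 (−0.54 to 3.77). Ccl7 had 1 and 8 UMIs there, and its interval included no difference. With 10 to 20% mitochondrial UMIs Ccl2 and Ccl7 were at 3.63 (1.71 to 6.71) and 4.42 (1.88 to 9.75). Over 20% they were at 1.53 (0.31 to 2.76) and 0.12 (−2.43 to 2.18).

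Ccl5, an attractant of T cells that is abundant in T and NK cells, went the other way. It was at 444 and 18.1 CPM, giving a log2 fold of −4.62 (−5.53 to −3.81), and was detected in 12.5% and 3.18% of Kupffer-rich barcodes, against 13.6% and 5.64% of B-cell barcodes. B-cell barcodes, which were deeper, held it at 149 and 96.7 CPM. Of the 114 no-tumor Ccl5 UMIs, 11 lay in the 109 Kupffer-rich barcodes under 2000 UMIs. In barcodes under 2000 UMIs Ccl5 was at 99.6 and 15.6 CPM, giving a log2 fold of −2.67 (−5.15 to −0.75). The 6 NK-cell marker genes summed to 265 and 21.9 CPM in Kupffer-rich barcodes. Their part in the Ccl5 difference was not tested. Of 11 chemokine genes measured in Kupffer-rich barcodes, 5 were called higher and 1 lower, with a median log2 fold of 0.84. Over all Kupffer barcodes 7 of 14 were higher and 2 lower, with a median of 1.43.

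Ccl6 differed between classes of barcodes. In classical monocytes it was at 939 and 613 CPM, in C1q macrophages at 482 and 802 CPM, and in B cells at 103 and 201 CPM. It was lower in MC38 monocytes and higher in MC38 Kupffer-rich barcodes. Ccl24 in C1q macrophages was at 30.2 and 67.4 CPM, far below its level in Kupffer-rich barcodes of either library.

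Of the genes of tumor-associated and lipid-handling macrophages, more were called higher than lower in the MC38 library. Of 10 measured in Kupffer-rich barcodes, 7 were called higher and none lower, with a median log2 fold of 1.53, and over all Kupffer barcodes 9 of 14 were higher and none lower, with a median of 1.95. Mmp12, the macrophage elastase, was at 3.89 CPM (1 UMI) and 186 CPM (144 UMIs), a log2 fold of 5.58 (3.08 to 10.89), and was detected in 0.694% and 10.2% of Kupffer-rich barcodes. With no mitochondrial limit it had 27 and 172 UMIs, a log2 fold of 2.78 (2.19 to 3.43), and was detected in 0.493% and 8.39%. Over 20% mitochondrial UMIs it had 26 and 28 UMIs, one of 1.64 (0.82 to 2.47). Trem2, a lipid-sensing receptor, was at 77.8 and 187 CPM, giving a log2 fold of 1.26 (0.58 to 2.02). The lipid-droplet coat gene Plin2 was at 222 and 630 CPM, a 2.84-fold difference.

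Several genes of this list were also abundant in hepatocytes. Arg1, which cleaves arginine in the urea cycle and in tumor macrophages, had 1 UMI in no-tumor and 500 UMIs in MC38 Kupffer-rich barcodes, or 3.89 and 645 CPM. It was detected in 35.0% of MC38 Kupffer-rich barcodes, in 27.8% of MC38 B-cell barcodes, and at 2807 CPM in MC38 hepatocyte barcodes. In the 117 and 54 Kupffer-rich barcodes with under 0.2% hepatocyte-list UMIs, which differ in depth, Arg1 was at 4.46 and 358 CPM. Plin2 in those barcodes was at 236 and 440 CPM, giving a log2 fold of 0.90, which is below the 2-fold line. Trem2 there was at 84.7 and 165 CPM, giving a log2 fold of 0.96, and it was also under the line in barcodes with 10 to 20% mitochondrial UMIs, at 0.97. Further list genes, Spp1 and Gpnmb, had 6 and 2 UMIs in MC38 Kupffer-rich barcodes and 0 in no-tumor ones, so their levels over all Kupffer barcodes came from the barcodes with few marker UMIs.

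Other genes ranked first in Kupffer-rich barcodes had mixed roles. The guanine deaminase Gda was at 19.5 and 188 CPM, giving a log2 fold of 3.27 (2.02 to 4.92). The mitochondrial translocator Tspo was at 105 and 390 CPM, and Acly, which makes acetyl-CoA for lipid synthesis, at 113 and 403 CPM. In all Kupffer barcodes Tspo was under the line, at 0.70, and with up to 10% mitochondrial UMIs Acly was at 0.97. Tspo was also at 216 and 464 CPM in B-cell barcodes and 210 and 693 CPM in hepatocyte barcodes, whereas Acly was at 62.2 and 69.5 CPM in B cells and 100 and 53.8 CPM in hepatocytes. The secretory-pathway kinase Fam20c had 0 UMIs in no-tumor and 52 UMIs in MC38 Kupffer-rich barcodes, at least 5.75-fold higher against a floor of 3 counts per library; with the counting error of the MC38 UMIs the log2 bound was 2.17. Socs2, Abcd3 and Klf9 had 1, 1 and 2 no-tumor UMIs and 55, 54 and 55 MC38 UMIs. Hepatocyte barcodes of the MC38 library held Socs2 at 94.8 CPM, Abcd3 at 199 CPM and Klf9 at 179 CPM, all above the 71.0, 69.7 and 71.0 CPM of Kupffer-rich barcodes.

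Markers of other cells differed between the libraries in both directions. In Kupffer-rich barcodes the hepatocyte list summed to 1082 and 6543 CPM, with 20 of 24 measured genes called higher and none lower. The erythroid list summed to 74.0 and 6360 CPM, most of it in few barcodes, since its per-barcode medians were 0 and 87.4 per 1000000 UMIs. The epithelial list summed to 0 and 190 CPM from Krt8 and Krt18, with Epcam, Krt19, Krt7 and Krt20 at 0. Monocyte-list UMIs summed to 790 and 2210 CPM. The neutrophil list summed to 2001 and 1543 CPM, with 2 of 5 measured genes called higher and none lower. Its per-barcode medians were 0 and 0, and its highest barcodes were at 124183 and 217687 per 1000000 UMIs. Other lists were lower in the MC38 library: pDC at 319 and 15.5 CPM, plasma cell at 199 and 38.7 CPM, B cell at 175 and 55.5 CPM, endothelial at 152 and 76.1 CPM, T cell at 136 and 18.1 CPM, and conventional dendritic cell at 93.4 and 19.4 CPM. The part of these in the genes called higher or lower was not tested, beyond the values in hepatocyte-poor barcodes given here.

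Some genes of glycolysis, which splits glucose for energy, and of the hypoxia response were called higher. In Kupffer-rich barcodes 6 of 17 were called higher and none lower, with a median log2 fold of 0.84, and over all Kupffer barcodes 11 of 21 were higher and none lower, with a median of 1.01. Gapdh was at 603 and 1445 CPM, giving a log2 fold of 1.26 (1.02 to 1.51). Ldha, which makes lactate, was at 288 and 602 CPM, giving a log2 fold of 1.06 (0.71 to 1.44). Aldoa had a log2 fold of 0.19 (−0.13 to 0.52) and P4ha1 one of −0.52 (−1.32 to 0.32). In barcodes under 2000 UMIs Gapdh was at 0.76 and Ldha at 0.96, under the 2-fold line, and Ldha was at 0.67 in hepatocyte-poor barcodes. Gapdh was also higher in MC38 B cells, at 473 and 834 CPM, and in C1q macrophages, at 786 and 2066 CPM. The iron-storage genes Fth1 and Ftl1 were higher by less than 2-fold, with log2 folds of 0.69 (0.61 to 0.76) and 0.51 (0.44 to 0.58). The transferrin receptor Tfrc was lower, with 22 and 7 UMIs and a log2 fold of −3.25 (−4.72 to −1.97), while the iron exporter Slc40a1 was at 2032 and 1533 CPM. Under 2000 UMIs per barcode Tfrc was at −2.12 (−5.51 to 0.49), and with up to 10% mitochondrial UMIs it had 3 and 2 UMIs. With no mitochondrial limit it was at −2.11 (−3.15 to −1.19).

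Of the genes of MHC class II, which present peptides to CD4 T cells, the chains and Cd74 were lower in MC38 Kupffer-rich barcodes. H2-Aa, the alpha chain of I-A (chr17:34282744-34287823, minus strand), was at 4095 CPM (3851 to 4350) and 1522 CPM (1437 to 1612), a log2 fold of −1.43 (−1.55 to −1.31). It was detected in 93.1% and 75.6% of Kupffer-rich barcodes, and in 93.0% and 59.8% after thinning to 1000 UMIs. H2-Ab1, the beta chain, had a log2 fold of −1.42 (−1.54 to −1.30), and H2-Eb1 one of −1.55 (−1.70 to −1.40). The invariant chain gene Cd74 was at 10268 and 4537 CPM, giving a log2 fold of −1.18 (−1.25 to −1.10). Per barcode, these 4 genes together had a median of 179.5 UMIs per 10000 in the no-tumor library, with a range of 11.4 to 816, and 66.9 in the MC38 library, with a range of 0 to 600. The 2 distributions overlapped widely. The costimulator Cd86 was at 167 and 82.6 CPM, giving a log2 fold of −1.02 (−1.60 to −0.43). The class II chaperone subunits H2-DMa and H2-DMb1 had log2 folds of −0.49 and −0.33, under the 2-fold line.

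Of 8 class II genes measured in Kupffer-rich barcodes, 5 were called lower and none higher, with a median log2 fold of −1.10. Over all Kupffer barcodes 2 of 12 were lower, with a median of −0.63, and H2-Aa, H2-Ab1, H2-Eb1 and Cd74 were under the 2-fold line, at −0.88, −0.95, −0.97 and −0.82. Lists of other class II-bearing cells were lower in the same Kupffer-rich barcodes, pDC at 319 and 15.5 CPM, B cell at 175 and 55.5 CPM and conventional dendritic cell at 93.4 and 19.4 CPM, and their part was not tested. The values moved with the mitochondrial limit: with none, the log2 folds of H2-Aa and Cd74 in Kupffer-rich barcodes were −0.89 and −0.67, under the 2-fold line. In other classes H2-Aa was at 2619 and 2705 CPM in B cells, 854 and 238 CPM in classical monocytes and 5409 and 1766 CPM in C1q macrophages. It was thus lower in Kupffer-rich barcodes, classical monocytes and C1q macrophages, and nearly level in B cells. Its values in neutrophils, pDC and the remaining classes are not given here. The promoters of H2-Aa and H2-Eb1 are shown because both genes were called lower and both hold the Y box, the binding motif of the factor NF-Y (capitals). Its first letter lies 51 and 62 bases before the start.

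H2-Aa (chr17:34287824-34288073, minus strand, GRCm38.p6): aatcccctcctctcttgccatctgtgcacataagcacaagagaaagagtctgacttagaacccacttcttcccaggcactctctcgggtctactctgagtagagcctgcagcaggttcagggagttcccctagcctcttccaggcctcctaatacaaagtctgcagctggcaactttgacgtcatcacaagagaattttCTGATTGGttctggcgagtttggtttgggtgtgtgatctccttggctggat
H2-Eb1 (chr17:34305617-34305866, plus strand, GRCm38.p6): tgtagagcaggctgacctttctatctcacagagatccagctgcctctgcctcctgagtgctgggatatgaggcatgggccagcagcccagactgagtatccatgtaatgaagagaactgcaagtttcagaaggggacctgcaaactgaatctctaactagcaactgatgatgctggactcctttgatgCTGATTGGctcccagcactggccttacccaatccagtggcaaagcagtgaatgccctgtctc

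Of the 12 class II genes, 7 had a promoter in the table, and 3 of these held CTGATTGG on either strand, against 3.83% of all windows. A gene was counted when any of its windows matched, whereas the share is of single windows. AP-1 was found in 1 of 9 chemokine genes with a promoter, against 6.75% of windows. PU.1 was found in 0 of 13 Kupffer genes with a promoter, against 2.44%. A match is a description and does not show that the site was used in these cells.

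Some MHC class I genes, which present peptides to CD8 T cells, were called lower. H2-K1 was at 2732 and 1344 CPM, giving a log2 fold of −1.02 (−1.16 to −0.88), and H2-D1 at 2588 and 1289 CPM, one of −1.01 (−1.15 to −0.86). B2m, the shared light chain, was at −0.98 (−1.11 to −0.83), just under the 2-fold line. The nonclassical gene H2-T23, a ligand of NK receptors, was at 323 and 86.4 CPM, giving a log2 fold of −1.90 (−2.39 to −1.42). Tap1, a peptide transporter subunit, had a log2 fold of 0.21 (−0.33 to 0.78). Of 12 class I genes measured in Kupffer-rich barcodes, 5 were called lower and none higher, with a median of −0.90, and over all Kupffer barcodes 3 of 12 were lower, with H2-K1 and H2-D1 under the line at −0.73 and −0.71. These genes sit in families of close copies, so reads may have been split among them. In B cells H2-K1 was at 1615 and 1431 CPM, giving a log2 fold of −0.17.

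Type I interferon response genes, which cells switch on against viruses, were called lower more often than higher. In Kupffer-rich barcodes 9 of 14 were called lower and none higher, with a median log2 fold of −1.24, and over all Kupffer barcodes 9 of 19 were lower, with a median of −0.93. Ifi27l2a was at 1020 and 377 CPM, giving a log2 fold of −1.44 (−1.68 to −1.19), and was detected in 69.4% and 43.8% of Kupffer-rich barcodes. The antiviral tether Bst2 was at 693 and 317 CPM, giving a log2 fold of −1.13 (−1.41 to −0.84). The ubiquitin-like protein gene Isg15 had 29 and 18 UMIs, a log2 fold of −2.28 (−3.22 to −1.38), and Ifit3, an RNA sensor of the same response, had 25 and 25 UMIs, one of −1.59 (−2.45 to −0.73). Irf7, a transcription factor of this response, had a log2 fold of −0.98 (−1.36 to −0.60), just under the line.

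Ifi27l2a and Bst2 were lower in other classes as well. Ifi27l2a was at 583 and 206 CPM in B cells and 1507 and 251 CPM in classical monocytes, and Bst2 at 284 and 78.9 CPM in B cells. Summed per barcode, the list had a median of 33.3 UMIs per 10000 in no-tumor and 12.7 in MC38 Kupffer-rich barcodes, with ranges of 0 to 237 and 0 to 66.5. Without a mitochondrial limit the log2 fold of Bst2 was −0.34, and that of Ifi27l2a was −1.16. Summed over all Kupffer barcodes they were at −1.09 and −1.73. Isg15 in Timd4-positive barcodes was at −1.09 (−2.27 to 0.12). The pDC list, of cells that make type I interferon, was at 319 and 15.5 CPM in Kupffer-rich barcodes, and its part was not tested. Genes induced by interferon gamma were less one-sided. Of 13 measured in Kupffer-rich barcodes, 1 was called lower, Cxcl10, and none higher, with a median of −0.33. Cxcl10 had 13 and 12 UMIs there, at 50.6 and 15.5 CPM, and 250 and 26 UMIs in the barcodes with few marker UMIs. The promoters of Isg15 and Ifit3 are shown because each holds the ISRE more than once (capitals).

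Isg15 (chr4:156200819-156201068, minus strand, GRCm38.p6): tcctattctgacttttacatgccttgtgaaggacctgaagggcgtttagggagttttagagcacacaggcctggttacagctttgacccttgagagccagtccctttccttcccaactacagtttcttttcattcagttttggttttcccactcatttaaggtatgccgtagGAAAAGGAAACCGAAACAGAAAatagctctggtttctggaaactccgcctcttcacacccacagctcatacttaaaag
Ifit3 (chr19:34583279-34583528, plus strand, GRCm38.p6): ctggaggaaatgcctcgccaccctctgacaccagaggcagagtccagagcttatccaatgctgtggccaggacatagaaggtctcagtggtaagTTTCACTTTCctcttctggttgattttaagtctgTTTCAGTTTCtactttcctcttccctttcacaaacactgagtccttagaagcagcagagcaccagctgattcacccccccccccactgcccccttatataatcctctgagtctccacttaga

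Isg15 held 3 overlapping matches and Ifit3 held 2 on the opposite strand. Of the 19 list genes, 14 had a promoter in the table and 7 of these held the ISRE on either strand in any of their windows, against 2.98% of all single windows. The 7 were Bst2, Ifit1, Ifit3, Isg15, Oas1a, Rsad2 and Stat2.

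**Figure D4:**
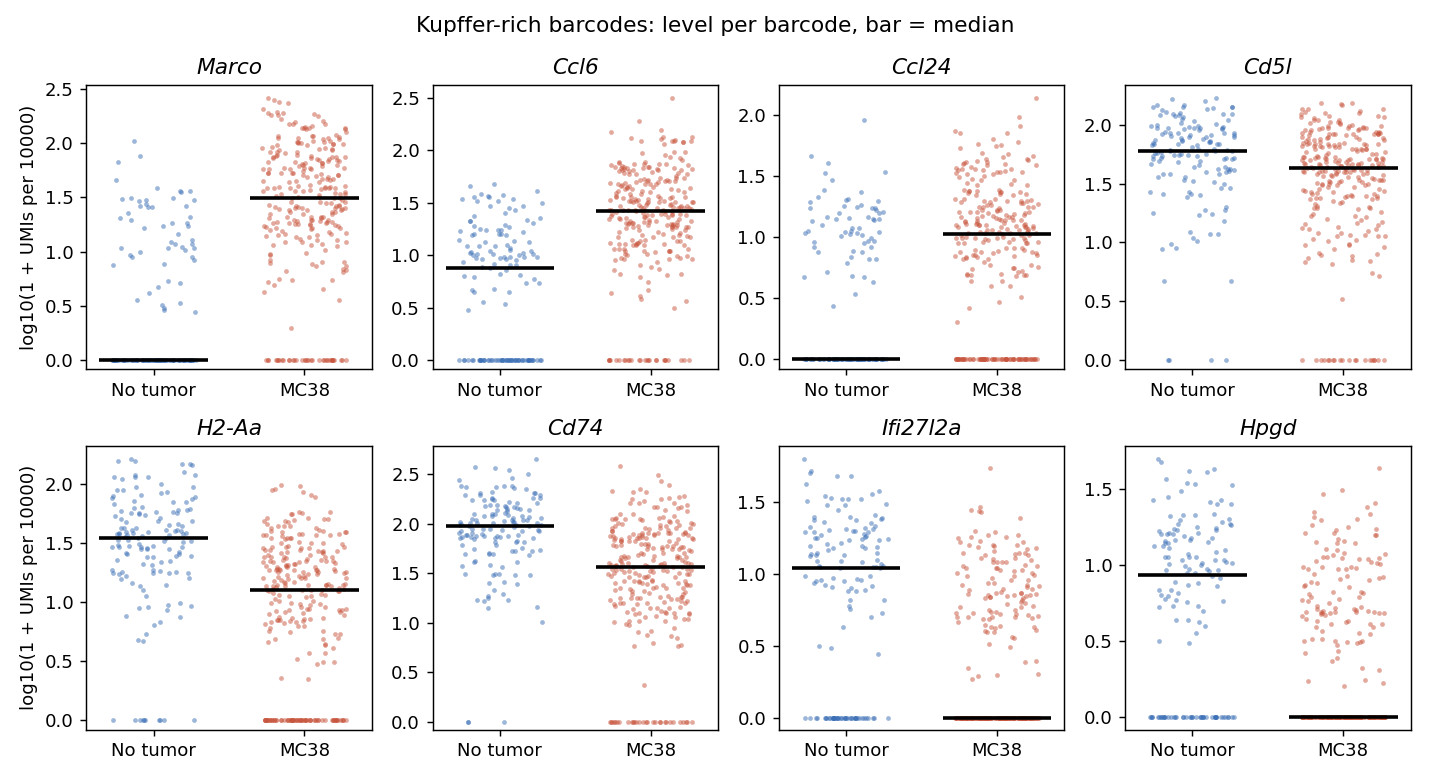
Level per Kupffer-rich barcode as log10(1 + UMIs per 10000) (y axis) of 8 genes in 144 no-tumor (blue) and 283 MC38 (red) barcodes; the bar is the median. Medians of Marco, Ccl6 and Ccl24 are higher and those of H2-Aa, Cd74, Ifi27l2a and Hpgd lower in the MC38 library, and the point clouds overlap for each gene.

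Genes that mark Kupffer cells, apart from Marco, were called lower or not called in the MC38 library. In Kupffer-rich barcodes 1 of 18 was called higher, Marco, and 5 lower, with a median log2 fold of −0.63. Hpgd, which breaks down prostaglandins, was at 837 and 279 CPM, giving a log2 fold of −1.59 (−1.87 to −1.31). The junction protein gene Cdh5 was at 448 and 161 CPM, one of −1.47 (−1.85 to −1.09), and the potassium channel gene Kcna2 had 46 and 35 UMIs, one of −1.99 (−2.66 to −1.32). Pcolce2 and Paqr9 were also called lower, at −1.26 and −1.05. Folr2 was at 1246 and 697 CPM, giving a log2 fold of −0.84 (−1.04 to −0.63). Cd163 was level, at 537 and 535 CPM. Over all Kupffer barcodes the median was 0.05, with 1 gene called higher and 1 lower, and Hpgd, Cdh5, Pcolce2 and Paqr9 were under the line at −0.96, −0.91, −0.52 and −0.25. With no mitochondrial limit Cdh5 was at −0.96 in Kupffer-rich barcodes, and with up to 10% mitochondrial UMIs Kcna2 was at −0.53 (−2.49 to 1.96).

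The direction of this list therefore depended on which barcodes were summed. Among the barcodes with few marker UMIs, C1qa was at 491 CPM in the no-tumor and 1145 CPM in the MC38 library, while in Kupffer-rich barcodes it was at 7251 and 5418 CPM. The latter gap moved with the mitochondrial limit. With none, C1qa was at 5488 and 5256 CPM in Kupffer-rich barcodes, a log2 fold of −0.06 (−0.11 to −0.01). A difference in sign between Kupffer-rich and all Kupffer barcodes was also seen for the medians of the complement, lysosome, Fc receptor and microbial sensing lists. Complement genes had a median log2 fold of −0.26 in Kupffer-rich and 0.42 in all Kupffer barcodes. C3, the central complement component, was the exception in Kupffer-rich barcodes, at 42.8 and 174 CPM, giving a log2 fold of 2.02 (1.14 to 3.06), with 931 CPM in MC38 hepatocyte barcodes. The lysosome list had medians of −0.14 and 0.42, with none of 18 genes called in Kupffer-rich barcodes. The Fc receptor list had −0.08 and 0.80, and the microbial sensing list −0.44 and 0.47.

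**Figure D5:**
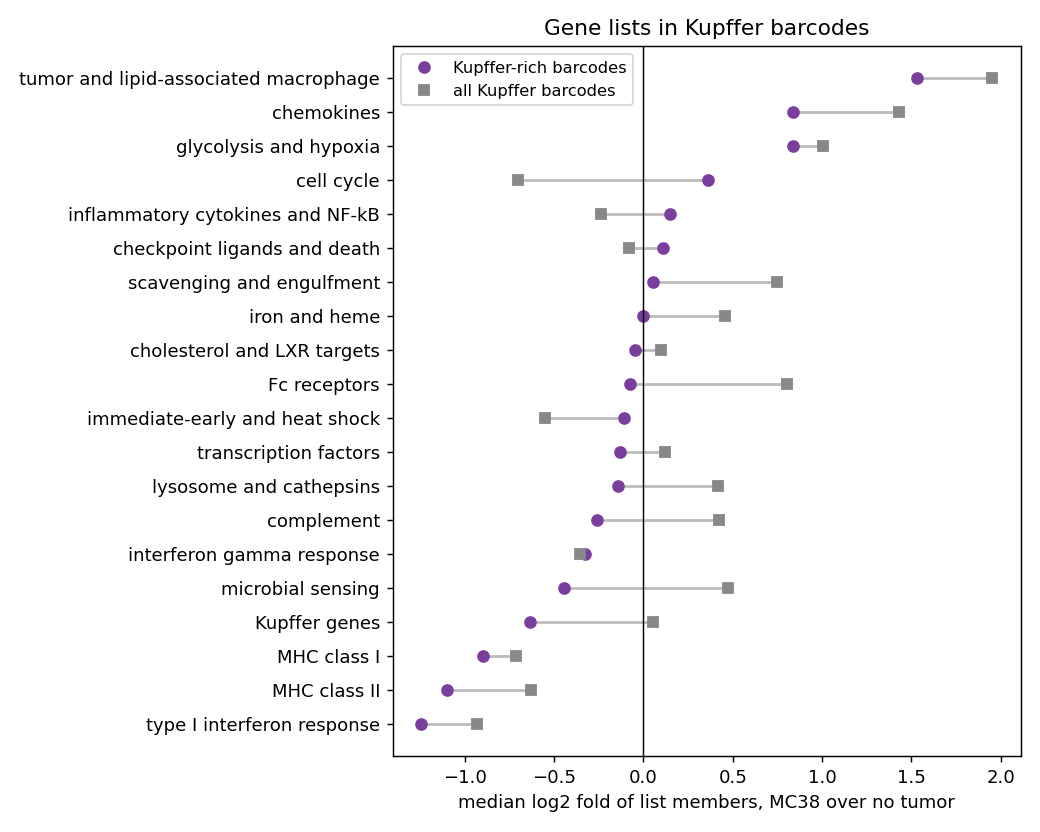
Median log2 fold of the measured genes of each of 20 lists (y axis), MC38 over no tumor (x axis), in Kupffer-rich barcodes (purple circles) and all Kupffer barcodes (grey squares). MHC and type I interferon lists lie below 0 and the chemokine, tumor macrophage and glycolysis lists above 0 in both, while complement, lysosome, Fc receptor, Kupffer and cell cycle medians are among those that differ in sign.

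Transcription factors of Kupffer identity showed small differences. Of 17 measured in Kupffer-rich barcodes, 1 was called higher, Id1, with 12 and 108 UMIs and a log2 fold of 1.58 (0.71 to 2.57), and none lower. With up to 10% mitochondrial UMIs Id1 was at 0.73 (−0.61 to 2.43). Id1 was at 169 CPM in MC38 hepatocyte barcodes, above the 139 CPM of Kupffer-rich ones. Spic, needed for iron-recycling macrophages, had 36 and 55 UMIs and a log2 fold of −0.98 (−1.61 to −0.33). Maf was at 529 and 275 CPM, one of −0.95 (−1.26 to −0.62). The liver X receptor gene Nr1h3 was at 506 and 372 CPM. The LXR and cholesterol list had a median of −0.05, with Apoe at 11607 and 12443 CPM.

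Among cytokines, Il18 and the interleukin 1 receptor antagonist Il1rn were called higher, at log2 folds of 1.35 (0.67 to 2.10) and 2.15 (0.86 to 3.82). Il1b, the inflammatory cytokine that Il1rn's product opposes at its receptor, was at 276 and 86.4 CPM, giving a log2 fold of −1.68 (−2.18 to −1.17). Il1rn rested on 5 and 67 UMIs. These calls did not hold in every subset. With up to 10% mitochondrial UMIs Il18 was at 0.40 (−0.69 to 1.69) and Il1rn at 0.47 (−1.29 to 2.86). Of the 71 no-tumor Il1b UMIs 62 lay in Timd4-positive barcodes; without Timd4 its log2 fold was −0.11 (−1.23 to 1.16), under 2000 UMIs −0.47 (−1.38 to 0.45), and over all Kupffer barcodes −0.24 (−0.54 to 0.07). Cd207, the lectin langerin, was the first-ranked gene on the lower side, with 64 and 39 UMIs, a log2 fold of −2.31 (−2.92 to −1.71), and it was detected in 11.8% and 7.42% of Kupffer-rich barcodes. Under 2000 UMIs it was at −1.02 (−2.26 to 0.20).

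Genes ranked first over all Kupffer barcodes were often carried by the barcodes with few marker UMIs. Slpi, a protease inhibitor, was at 87.4 and 700 CPM over all, at 90.2 and 1001 CPM in the barcodes with few marker UMIs, and at 77.8 and 92.9 CPM in Kupffer-rich ones, a log2 fold of 0.25 (−0.48 to 1.05). Ecm1 and F11r behaved alike, with log2 folds of 2.97 and 2.81 over all and 0.41 and 0.73 in Kupffer-rich barcodes. Lrg1 had 0 no-tumor and 332 MC38 UMIs over all Kupffer barcodes, at least 54.5-fold higher against the floor of 3 counts, or a log2 bound of 5.46 with counting error, and 46 of these UMIs lay in Kupffer-rich barcodes. The proliferation gene Top2a was at 164 and 49.1 CPM over all, a log2 fold of −1.74 (−2.08 to −1.40), and at 66.2 and 47.7 CPM in Kupffer-rich barcodes, one of −0.47 (−1.34 to 0.45). The heat shock gene Hspa1b had 127 and 17 UMIs over all, a log2 fold of −3.92 (−4.75 to −3.19), and 17 and 0 UMIs in Kupffer-rich barcodes. Hspa1b was also lower in MC38 B cells, at 49.6 and 3.95 CPM.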

How the data were processed

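The deposited files were raw UMI counts per gene and barcode, as 10x matrices of 28692 genes; per the file headers the writing software's version was 3.0.2, and the submitters' processing notes name Cell Ranger 2.2, STAR, Seurat 2.3.4 and the build GRCm38.p6. Barcode and gene names were used as deposited. The libraries held 91617457 and 114421875 UMIs. UMIs of member barcodes were summed per library, divided by the summed UMIs and given as CPM (counts per 1000000), with exact Poisson, binomial and conditional 95% intervals (Python 3.11.15, scipy 1.17.1). Genes at 0 in 1 library were set to a floor of 3 counts. The fold, interval and calling steps were tried on simulated Poisson counts. These had no spread between barcodes, and the member rule, shares and lists were not simulated. Cells were not treated as replicates. Doublets were not removed: the doublet caller scrublet (in scanpy 1.11.5) marked 1 of 8086 no-tumor barcodes and so had not worked there; it marked 1383 (7.98%) of 17338 MC38 barcodes.

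The members and lists were chosen with earlier results of these data known. Named genes were the 12 highest and 12 lowest by the interval end nearest 0, among genes with at least 50 UMIs, 50 CPM and detection in 10% of barcodes in the higher library, and at least 25% of their highest CPM in any other class. Antigen receptor, ribosomal, mitochondrial, hemoglobin, unnamed model and other-cell marker genes were left out, as were the rule genes. Kupffer-rich barcodes and their ranking were added after the data were seen. The rule also names the 2 highest and 2 lowest members of each function list and all Kupffer, transcription factor and complement genes; other list members were named after their values were seen. Positions are from GENCODE M21 and promoters from RefSeq.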

Additional observations from a re-analysis of the deposited data

How the results depend on the processing

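Each group was 1 pooled library, so no replicate could be left out. No paired analysis was possible because each group has 1 library and no result comes from a test. The log2 ratio of Kupffer shares was −0.22 and moved to −1.10 with no mitochondrial limit, 0.49 between 10 and 20% mitochondrial UMIs, 0.033 with at least 500 genes and 0.17 over barcodes with Ptprc; the cause was not tested. Against 446 genes called higher over all Kupffer barcodes, there were 259 in Kupffer-rich barcodes, 232 in barcodes under 4000 UMIs, 156 after thinning to 1000 UMIs, 282 with a minimum of 100 UMIs, 711 with a minimum of 1 UMI and 851 at 1.5-fold. Against 340 called lower, there were 205 with no mitochondrial limit, 176 without barcodes holding 2 Ly6c2 or Ccr2 UMIs, 119 in Kupffer-rich barcodes, 92 under 4000 UMIs, 596 as a mean over cells, 68 after thinning, 605 and 142 with minimums of 20 and 100 UMIs, 793 with 1 UMI and 922 at 1.5-fold. Stricter minimums and thinning leave fewer genes or UMIs by construction. Among lists whose median over all Kupffer barcodes was at least 1.5-fold from no difference, medians that reversed were scavenging at −0.21 under 4000 UMIs, Fc receptors at −0.077 in Kupffer-rich barcodes, −0.27 under 4000 UMIs and −0.14 as a mean over cells, chemokines at −0.16 after thinning and −0.014 with 100 UMIs, and cell cycle at 0.47 between 10 and 20% mitochondrial UMIs, 0.36 in Kupffer-rich barcodes and 0.11 after thinning. Hspa1a reversed to 0.78 and Thbs1 to −0.22 under 4000 UMIs, and Slpi to −0.21 with at least 2 rule genes detected. Removing the highest doublet scores at the expected rate, an alternative chosen after seeing the data, took 11 no-tumor and 75 MC38 members. It left 219 and 348 and moved the share's log2 ratio to −0.31. The alternatives in Kupffer-rich barcodes and under 4000 UMIs were also chosen after seeing the data. Of the named genes' alternatives 286 stayed within the counting interval, 141 moved beyond it and 3 reversed; for list medians these were 323, 68 and 9, where the 9 leave out lists with smaller medians, such as complement at −0.26, lysosome at −0.14, microbial sensing at −0.44 and Kupffer genes at −0.63 in Kupffer-rich barcodes. At the depth of Kupffer-rich barcodes, 2910 of 28692 genes reached 50 UMIs.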
